A study of Sus scrofa domesticus with 4 samples.

Results

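Regulators of G-protein signalling (RGS) are proteins that switch off signals from G protein-coupled receptors, and 6 genes of this family were looked for in explants of pig myometrium, which is the muscular wall of the uterus: RGS1, RGS2, RGS4, RGS5, RGS10 and RGS16. They were found by matching the RefSeq accession of each array probe to the pig gene table. Of the 6 genes, 3 were matched, by 4 of the 43603 probes on the array: RGS2 and RGS4 by 1 probe each and RGS5 by 2. For RGS1, RGS10 and RGS16 no probe was matched, so they are not analysed here. The genes were chosen by family membership with their treated over control ratios on these arrays already in view, so these values are given as a description, with no test.

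Tissue came from 4 gilts (Large White x Polish Landrace) aged 7 to 8 months that were slaughtered on days 15 to 16 of pregnancy. Explants of the uterine horns were preincubated for 2 h and then cultured for 24 h, either with adiponectin, a hormone released mainly by fat cells, at 10 µg/ml, or untreated. Each of 4 Agilent 2-colour arrays held 1 treated and 1 untreated RNA. The dye of the treated RNA was Cy5 for arrays 1 and 3 and Cy3 for arrays 2 and 4, per the dye fields of the labels. The labels do not tell which animal each array holds, and the errors given are the spread between arrays, which may be partly technical. Explants hold every cell type of the muscle layer, and a change in the number of cells of a type cannot be told apart from a change of RNA per cell.

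A hormone-bound receptor loads the alpha subunit of its G protein with GTP, and RGS proteins speed the hydrolysis of that GTP, which ends the signal. In uterine muscle, receptors coupled to Gq, such as the oxytocin receptor, raise calcium and drive contraction, while receptors coupled to Gs raise cyclic AMP and favour relaxation. RGS2 prefers the Gq alpha subunit and is known for limiting vascular smooth muscle tone. RGS4 and RGS5 act on the Gi and Gq classes. RGS5 is widely used as a marker of pericytes and vascular smooth muscle, and the RGS4 and RGS5 proteins are degraded through an oxygen-sensitive N-degron pathway. In the pig gene table (assembly Sscrofa11.1) RGS4 and RGS5 are next to each other among protein-coding genes, and RGS2 lies beside RGS13 elsewhere.

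All 4 RGS probes were well above background in both conditions on all 4 arrays. Across the whole array 22129 probes were tested with limma, with a treatment and a dye coefficient. After Benjamini-Hochberg adjustment at a threshold of 0.05, limma called 0 of them higher (0%) and 0 of them lower (0%), with no adjusted p below 0.959. Without adjustment the counts under 0.05 were 759 higher (3.43%) and 374 lower (1.69%), and with median centring in place of loess 222 higher and 2249 lower. That setting also moved the median fitted log2 change of all tested probes from 0.00 to -0.08. Between 46.1% and 63.1% of probes were well above background in a channel. Having 4 arrays sets the precision, and the 95% interval of a typical probe reached 0.25 (median half-width, log2 scale) to either side. The files hold no probe sequence, so none is shown.

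RGS5 was, on average, higher with adiponectin, and its level in untreated tissue differed widely between arrays. Its brighter probe (A_72_P146676) gave normalised log2 signals in control tissue of 11.46, 9.73, 10.52 and 12.50 on arrays 1 to 4. The treated signals were 11.46, 11.48, 10.98 and 12.49. The control signal was lowest on array 2 and highest on array 4, 6.85-fold apart, while the treated signals were 2.84-fold apart, and both ranges overlapped. The lowest and the highest control signal were both measured in Cy5, and the part of the dye in this spread was not tested. Of all tested probes, 0.597% had a control range at least as wide, and the median range of a probe was 0.61 on the log2 scale against 2.78 for this probe. With array medians in place of quantile scaling between arrays, the RGS5 control ranges were 2.05 and 1.78 at the brighter and the other probe.

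The RGS5 ratios of treated over control on the log2 scale were 0.00, 1.76, 0.46 and -0.01 on arrays 1 to 4, a mean of 0.55 ± 0.83 (SD, n = 4 arrays). The positive mean came mostly from array 2, where the treated signal was 3.38-fold the control signal, and on arrays 1 and 4 treated and control signals were nearly equal. The fitted log2 change was 0.55 ± 0.29 (SE, n = 4 arrays), a 1.47-fold higher treated signal, with a 95% interval from -0.16 to 1.27 that includes no change. It was 0.11 without array 2 and 0.99 without array 4, the only array on slide 2, and 0.37 with median centring in place of loess. Each RGS5 probe had a single spot per array.

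The other RGS5 probe (A_72_P569669) read the same RNAs at another spot. Its control log2 signals were 11.02, 9.03, 10.00 and 11.44, and its treated log2 signals 10.73, 10.80, 10.53 and 11.62. As with the brighter probe, control tissue of array 2 was lowest and that of array 4 highest, 5.30-fold apart. Its log2 ratios were -0.29, 1.77, 0.53 and 0.18, with a mean of 0.55 ± 0.88 (SD, n = 4 arrays). Array by array the ratios of the RGS5 probes differed by at most 0.29 on the log2 scale, far less than the ratios of either probe differed between arrays. The fitted change was 0.55 ± 0.28 (SE, n = 4 arrays), with an interval from -0.16 to 1.25, and the value dropped to 0.15 when array 2 was left out and to 0.34 when array 3 was, and stood at 0.94 when array 4 was. The low control signal of array 2 was present at both probes.

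**Figure D1:**
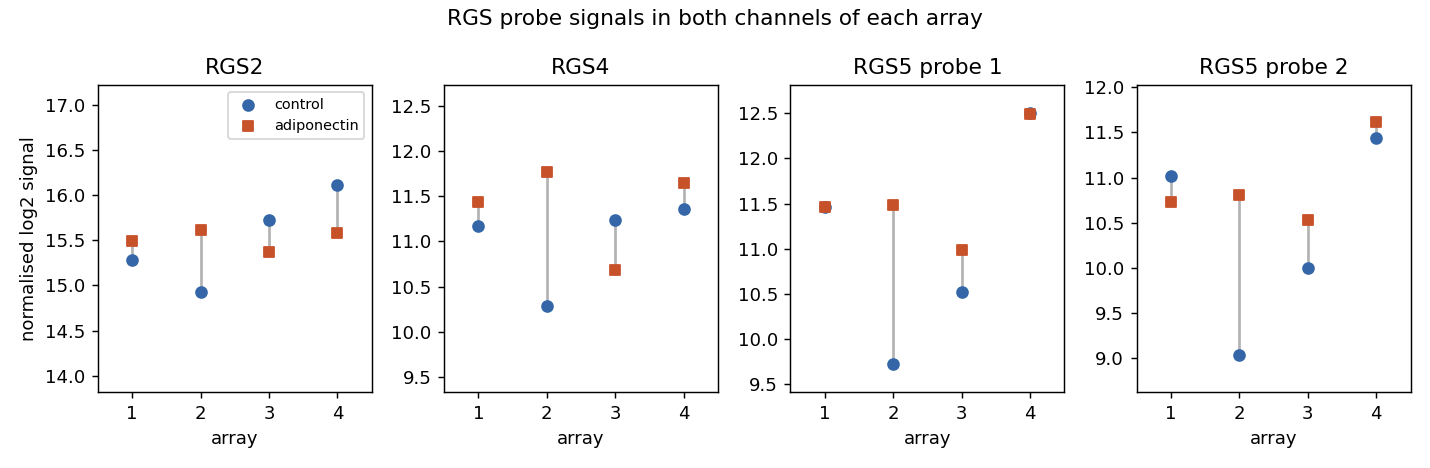
Normalised log2 signal (vertical axes, each spanning 3.4 units) of the 4 RGS probes on arrays 1 to 4, with control tissue as circles, adiponectin-treated tissue as squares and a line joining both RNAs of an array. On array 2 the control signals of RGS2 (14.92), RGS4 (10.29) and both RGS5 probes (9.73 and 9.03) lie below every other signal of the same probe.

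RGS4 shared the low control signal on array 2 but not the rest of the RGS5 pattern. Its control log2 signals were 11.17, 10.29, 11.23 and 11.36 on arrays 1 to 4. The treated signals were 11.43, 11.77, 10.69 and 11.64. Control tissue was at a similar level on 3 arrays and 2.09-fold lower on array 2 than on array 4, and the treated signal was lowest on array 3. The log2 ratios were 0.26, 1.48, -0.55 and 0.29, with a mean of 0.37 ± 0.84 (SD, n = 4 arrays). Treated signal was higher than control on 3 of 4 arrays, by 2.79-fold on array 2, and was 0.69-fold the control signal on array 3. The fitted log2 change was 0.37 ± 0.23 (SE, n = 4 arrays), 1.29-fold, with a 95% interval from -0.21 to 0.95. Leaving out array 1 gave 0.17, array 2 0.07, array 3 0.57 and array 4 0.67. With median centring in place of loess and all arrays it was 0.20.

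RGS2 differed between arrays in direction, and its fitted change was 0.00 with a wide interval. Its control log2 signals were 15.28, 14.92, 15.72 and 16.11, and its treated log2 signals 15.49, 15.62, 15.37 and 15.58. The treated signals stayed within 1.19-fold of each other, while the control signals spanned 2.28-fold and overlapped the treated range. The control range of RGS2 was 1.19 on the log2 scale with quantile scaling between arrays, 0.95 in the deposited processed intensities and 1.94 with array medians, where it lay between those of the RGS5 probes. The log2 ratios were 0.21, 0.69, -0.36 and -0.53, higher with adiponectin on arrays 1 and 2 and lower on arrays 3 and 4. The fitted log2 change was 0.00 ± 0.22 (SE, n = 4 arrays), with a 95% interval from -0.54 to 0.55. Leaving out array 2 gave -0.30 and array 1 gave -0.14, while leaving out array 3 gave 0.15 and array 4 gave 0.31. Median centring in place of loess gave -0.28, so no direction can be given for RGS2.

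**Figure D2:**
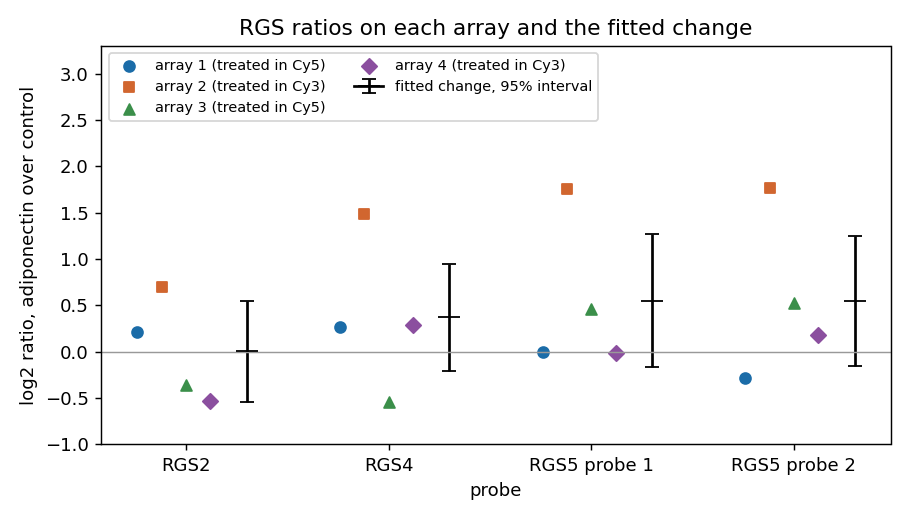
Log2 ratio of adiponectin over control (vertical axis) for the 4 RGS probes on each array, with the dye of the treated RNA in the legend, and the fitted change with its 95% interval in black. Array 2 gives the highest ratio of every probe (0.69 to 1.77), and all 4 intervals include 0.

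In control tissue of array 2 each of the 4 RGS probes had its lowest signal of all 8, which held for 24.3% of tested probes. Array 2 gave the highest ratio at each of the 4 RGS probes, and 28.1% of all tested probes also had their highest ratio on array 2. The array 2 ratio of the brighter RGS5 probe was reached by 0.127% of tested probes on that array, that of RGS4 by 0.199% and that of RGS2 by 2.50%. On array 3 the genes separated, with both RGS5 probes above 0 and RGS4 and RGS2 below 0. RGS4 and both RGS5 probes were above 0 on 3 of 4 arrays, the brighter RGS5 probe with 0.00 on array 1 counted among them, and RGS2 on 2. Of all tested probes, 31.1% were above 0 on at least 3 arrays. None of the 4 RGS probes had treated and control signals that did not overlap, which 0.836% of tested probes had. In the deposited scanner ratios, turned by the dye labels, RGS5 stood at -0.03, 1.89, 0.51 and 0.14, RGS4 at 0.36, 1.47, -0.54 and 0.45, and RGS2 at 0.18, 0.59, -0.27 and -0.49. These ratios gave the same high value on array 2, and on array 4 they put the brighter RGS5 probe slightly above 0.

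The ratios of single arrays may still hold a dye offset for each probe. The fitted dye coefficient, the log2 excess of Cy5 over Cy3, was -0.51 for RGS4, -0.32 and -0.43 for the RGS5 probes and -0.08 for RGS2. This coefficient contrasts arrays 1 and 3 with arrays 2 and 4, so a dye effect cannot be told apart from differences between single arrays. At the brighter RGS5 probe, arrays 2 and 4 shared a dye order but had ratios of 1.76 and -0.01. With the coefficient removed, the brighter RGS5 probe stood at 0.32, 1.44, 0.78 and -0.33 on arrays 1 to 4. RGS4 then stood at 0.78, 0.97, -0.03 and -0.23. For RGS5 array 2 stayed the highest after this step, and for RGS4 array 1 came close to array 2.

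**Figure D3:**
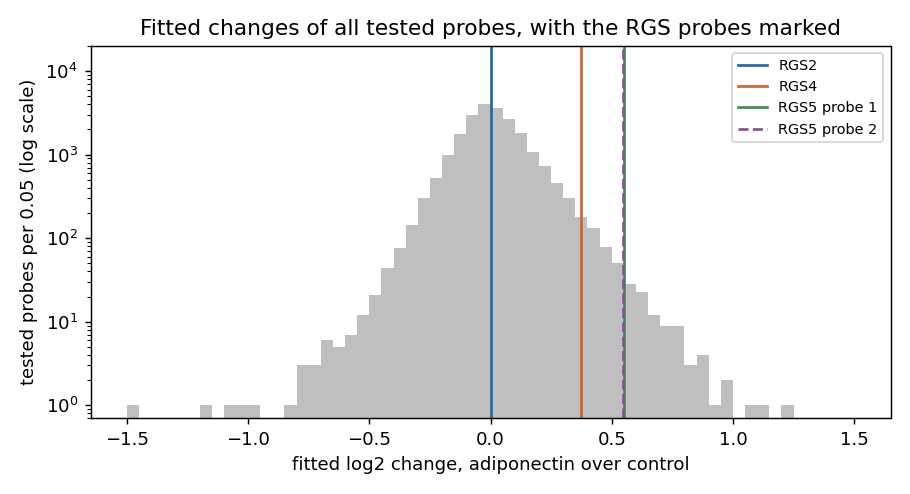
Number of tested probes (vertical axis, log scale) by fitted log2 change with adiponectin (horizontal axis, bins of 0.05, with values beyond the axis in the end bins), with vertical lines at the RGS probes. RGS2 lies at the centre (0.00), RGS4 at 0.37 and both RGS5 probes at 0.55, where the upper tail of the array is thin.

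The size of the fitted RGS5 change was reached or passed, in either direction, by 0.560% of the tested probes for the brighter probe and 0.574% for the other. For RGS4 that share was 2.65% and for RGS2 97.2%. These shares place the genes among the others and test nothing, since the genes were proposed with this comparison in view.

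Genes whose signals were most like those of each RGS gene were taken from 2131 other tested named genes. The measure was Pearson's r over 8 signals, both channels of the 4 arrays with each dye mean removed, which share arrays in pairs. For the brighter RGS5 probe these were DPH5, of diphthamide synthesis (0.98), TIGD4 (0.93) and ARV1, of sterol transport (0.93). The other RGS5 probe also gave ARV1 (0.96) and DPH5 (0.94), followed by RCHY1, a ubiquitin ligase (0.94). RGS4 was most like DPM1, of dolichol-phosphate mannose synthesis (0.86), ARV1 (0.81) and POT1, of telomere protection (0.81). Among the genes most like RGS2 were NCOA1, a coactivator of steroid receptors (0.92), and ALOX15, a lipoxygenase (0.86). Pearson's r scores how closely signals rise and fall in proportion, and not how large the changes are. On array 2 the log2 ratio of DPH5 was 0.30, against 1.76 for RGS5. The named genes were picked as the highest among 2131, and how high such values would be by chance was not tested.

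Other genes of G protein signalling were looked at as lists. Of 17 other RGS family members, 0 were matched by a probe, so the comparison inside the family rests on RGS2, RGS4 and RGS5. Of 27 G protein subunits, 7 were tested, 4 of them above 0, with a median log2 change of 0.00 and 0 called in either direction. GNG12, a gamma subunit, stood at 0.20 ± 0.09 (SE, n = 4 arrays), with 0.13, 0.28, 0.19 and 0.19 on arrays 1 to 4. GNAI3, an alpha subunit of the Gi class, stood at -0.13. Other substrates of RGS proteins were near 0, with GNAQ, the Gq alpha subunit, at 0.03 and GNAI2 at -0.05, and GNAS, the Gs alpha subunit, stood at 0.00. GNAI2 nevertheless varied between arrays, from -0.69 on array 1 to 0.62 on array 4, and its 3 probes lay between -0.20 and -0.05.

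Of 25 receptor kinases, arrestins and other regulators, 4 were tested, 2 of them above 0, with a median of 0.00 and 0 called. GRK2, a kinase that phosphorylates active receptors, stood at -0.09. Of 41 genes listed as effectors of Gq, Gi and Gs or in related signalling, 8 were tested, 4 of them above 0. The tested genes had a median of 0.00, and 0 were called. That median was -0.14 with median centring, against -0.08 over all tested probes. The 8 were PRKAR1A, PDE3A, PDE4A, PDE4B, PRKG1, GUCY1A3, GUCY1B3 and RHOA. No listed gene of phospholipase C beta, the IP3 receptor, protein kinase C or adenylyl cyclase was matched by a probe. These effectors could not be followed here. PDE3A, a phosphodiesterase that breaks down cyclic AMP, stood at 0.09 and GUCY1B3, a subunit of soluble guanylate cyclase, at 0.06. Each had 2 tested probes, and the dimmer one stood at -0.01 for PDE3A and -0.03 for GUCY1B3. On array 2 the brighter probes were above 0, PDE3A at 0.67 and GUCY1B3 at 0.39.

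Of 47 receptors of myometrium and vessel wall, 26 were matched and 17 tested, 12 of them above 0, with a median of 0.05 and 0 called. Over all 2134 tested named genes 45.9% were above 0, and the median was -0.01. The receptor median was -0.05 without array 3 and 0.01 without array 4. OXTR, the oxytocin receptor, which couples to Gq, stood at 0.35, with 0.41, -0.09, 0.84 and 0.23 on arrays 1 to 4 (limma adjusted p = 0.959). On array 2, where the RGS ratios were highest, OXTR had its lowest ratio. PTGFR, the prostaglandin F receptor, was not well above background on 3 or more arrays in either condition and was not tested.

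**Figure D4:**
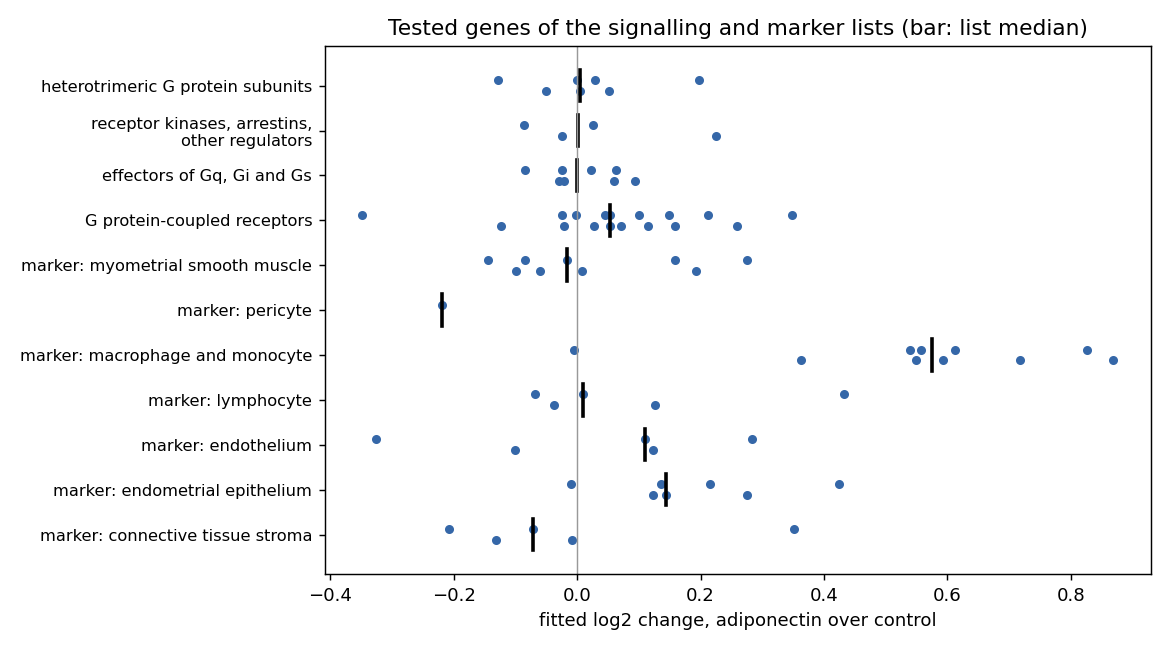
Fitted log2 change with adiponectin (horizontal axis) of each tested gene (points) in the signalling lists and the marker lists (rows), with a bar at the median of the list. The 3 lists of G protein subunits, regulators and effectors centre on 0.00, and the macrophage and monocyte markers centre on 0.58.

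The tissue carried its defining muscle genes: 9 of 15 smooth muscle markers were tested and well above background on every array, with DES, which encodes desmin, the brightest. Their median log2 ratio was -0.41, -0.18, 0.62 and -0.19 on arrays 1 to 4, unlike the RGS ratios. The log2 of their summed signals spanned 18.81 to 19.75 in control and 18.99 to 19.76 in treated tissue. Signals were added on the linear scale, here and for the lists below, so the brightest genes weigh most. Of 10 pericyte markers other than RGS5, 1 was tested, ANPEP, at -0.22, with its 3 probes between -0.28 and 0.07 and a control log2 signal of 11.60, 11.63, 12.09 and 12.66. Its control signal on array 2 was close to that on array 1, where the RGS5 control signal was 11.46. With 1 gene the share of pericytes in an explant cannot be followed here.

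Markers of endometrial epithelium, the lining that faces the uterine lumen, had ratios that, like those of RGS4 and RGS2, were in the median above 0 on array 2 and below 0 on array 3. Of 11 markers 7 were tested, 6 of them above 0, and their median log2 ratio was 0.05, 0.62, -0.41 and 0.43 on arrays 1 to 4. All 7 were above 0 on array 2, from 0.17 for SPP1 to 1.24 for CDH1. On array 3, 5 were below 0, down to -1.07 for EPCAM, while FUT1 and MUC4 stood at 0.02 and 0.05. The log2 of the summed epithelial marker signals spanned 12.78 to 13.82 in control and 13.00 to 13.98 in treated tissue. SPP1 was the brightest, at 0.12. In control tissue 5 of the 7 (KRT8, EPCAM, CDH1, CLDN4 and MUC4) had their highest signal on array 2, where the control signals of the RGS probes were lowest. Of all 2134 tested named genes, 945 had their highest control signal on array 2. By ratio, 874 of the 2134 were above 0 on array 2 and 918 were below 0 on array 3. Connective tissue markers had 5 of 10 tested, 1 above 0, a median of -0.07 and array medians of 0.34, -0.25, -0.31 and 0.04, with DCN, a matrix proteoglycan, the brightest at -0.13. The 4 DCN probes lay between -0.13 and 0.04. The log2 of the summed connective tissue marker signals spanned 16.75 to 17.66 in control and 16.90 to 17.18 in treated tissue. In control it was lowest on array 2 (16.75), close to array 1 (16.81). The part of epithelium and stroma in the RGS values was not tested.

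Among blood and vessel cells, macrophage and monocyte markers had 10 of 15 tested, 9 of them above 0, with a median of 0.58 and array medians of 0.29, -0.14, 1.67 and 0.73. AIF1, the brightest, stood at 0.59. These ratios were highest on array 3 and lowest on array 2, the reverse of RGS2, RGS4 and RGS5 on array 2. The log2 of the summed macrophage and monocyte marker signals spanned 12.37 to 13.51 in control and 12.73 to 14.23 in treated tissue. The median of these markers was 0.23 without array 3 and 0.31 without array 4. Endothelial markers had 5 of 10 tested, 3 above 0, with a median of 0.11 and array medians of -0.04, -0.16, 0.01 and 0.37. PECAM1 was the brightest, at 0.28, with its 3 probes between 0.04 and 0.28. The log2 of the summed endothelial marker signals spanned 13.39 to 13.93 in control, where array 2 was highest, and 13.35 to 14.02 in treated tissue. The endothelial median was -0.12 with median centring, where that of all tested probes was -0.08. It was -0.04 without array 3 and -0.12 without array 4. Lymphocyte markers had 5 of 18 tested, 3 above 0, with a median of 0.01 and GZMB, the brightest, at -0.04. CD3D and MS4A1, of T and B cells, were not well above background on 3 or more arrays in either condition. The lymphocyte median was 0.22 in the deposited scanner ratios. The part of these cells in the RGS values was not tested.

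**Figure D5:**
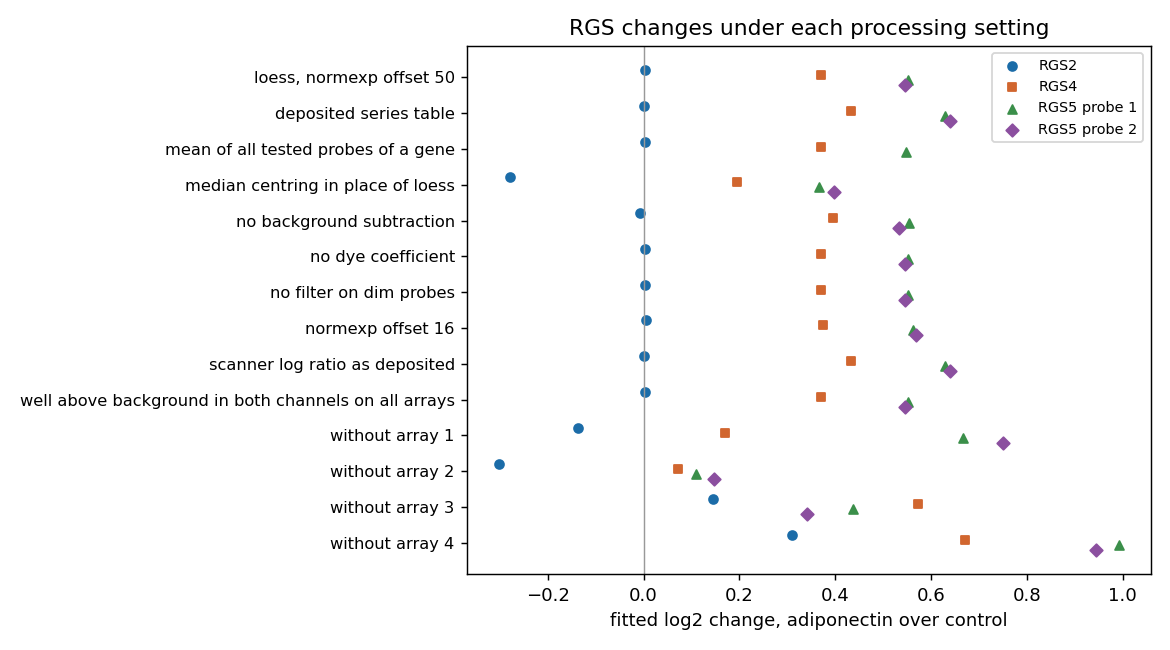
Fitted log2 change with adiponectin (horizontal axis) of the 4 RGS probes under each processing setting (rows). RGS4 and both RGS5 probes stay above 0 in every row, from 0.07 for RGS4 without array 2 to 0.99 for RGS5 without array 4, and RGS2 lies on both sides of 0.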

How the data were processed

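The members and gene lists were chosen with earlier results of these data known. Per the file headers, the deposited scanner files come from Agilent Feature Extraction 10.7.3.1 and hold the median intensity of each spot and of its local background in both channels. Per the same file headers, the authors' software also wrote a processed intensity, after background subtraction and dye normalisation, and a log10 ratio of Cy5 over Cy3. How the log2 ratios of the deposited series table were made is not given in the sources used here. Its slope on the scanner ratios of bright probes was 1, -1, 1 and -1 on arrays 1 to 4, so it gives treated over control, and its column medians were -0.10, 0.13, -0.14 and 0.16.

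Median spot intensity was corrected by normexp (offset 50) and loess-normalised within arrays, with control and outlier spots at weight 0, in limma 3.58.1 under R 4.3.3. Aquantile scaling gave signals per channel, which are open to dye bias. Tested probes had a value on every array and, in either condition, a signal well above background on 3 or more arrays. The fit (lmFit and eBayes, two-sided, Benjamini-Hochberg, threshold 0.05) had a treatment and a dye coefficient, was tested on simulated data, and its SE leaves out what the dye coefficient takes up. Of 7125 probes with a RefSeq accession, 6700 were named. The brightest tested probe stood for a gene. From each signalling list the 2 genes with the smallest unadjusted p and preset receptors and subunits are named, and from each marker list the brightest gene. List genes named beyond this rule (the epithelial genes other than SPP1, CD3D and MS4A1) were chosen after their values were seen. Some results that the rule also named are not reported here. Arrays 1 to 3 shared slide 1 and array 4 was on slide 2, and each slide held both conditions.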

Additional observations from a re-analysis of the deposited data

Results flagged for a closer look

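DCN, a matrix proteoglycan named as the brightest connective tissue marker, stood apart on array 1: its log2 ratio there was 0.34, while arrays 2, 3 and 4 lay from -0.31 to -0.25. It was the only set that stood apart in this way among the 30 sets of array values examined, and about 1.5 such sets are expected by chance. None of the RGS signals or ratios met that criterion, array 2 of RGS4 and RGS5 included. The RGS4 control signal of array 2 fell only just short of it, at 10.29 against 11.17 to 11.36 on the other arrays.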

How the results depend on the processing

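Under all 12 alternatives run for the whole array, limma called 0 probes, as with the settings used, and the smallest adjusted p lay between 0.0555 (without array 2) and 1.00 (without array 4). For RGS4 and both RGS5 probes the fitted change stayed above 0 under every alternative run, and for RGS2 it changed sign in 4 of 13. Leaving out 1 array moved the log2 change between -0.30 and 0.31 for RGS2, 0.07 and 0.67 for RGS4, 0.11 and 0.99 for the brighter RGS5 probe and 0.15 and 0.94 for the other. With 3 arrays, the 1 array of its dye order carries as much weight as the other 2 combined. The other settings gave -0.28 to 0.01 for RGS2, 0.20 to 0.43 for RGS4, 0.37 to 0.63 for the brighter RGS5 probe and 0.40 to 0.64 for the other. The RGS2 control range was 1.94 with array medians. The fit used the ratio of treated over control within each array, so the conditions were already paired by array. The cause of these shifts was not tested.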
